A study of Mus musculus with 2 samples.

Results

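Macrophages from mouse epididymal fat that carried hashtag antibodies A0304, A0305 and A0307 were compared with those that carried hashtags A0308, A0309 and A0310. Of 12040 cells in the series, 2999 were such macrophages, 1210 in the first set and 1789 in the second. A macrophage was a cell with at most 25% of its reads from mitochondrial (mt-) genes and at least 3 of the 6 markers Adgre1, C1qa, C1qb, C1qc, Csf1r and Mrc1 at 50 CPM, read counts scaled to the total of the cell or tag. The summed CPM of Lum, Dpt, Cdh5 and Cd3g, which mark fibroblasts, endothelium and T cells, had to stay under 300. Reads were then summed over the macrophages of each tag, which gave 3 values a side. Of the 9 tags' cells that met the other 2 limits, 403 held just 3 markers and 490 just 2. Those with 3 had 473 CPM of Csf1r and 211 of C1qb, and those with 2, left out, had 293 and 34.1.

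The study pooled stromal vascular cells, the fraction left when adipocytes are removed, from epididymal white adipose tissue of male wild-type C57BL/6J mice. Some animals were on a standard diet (16 weeks), and others were fed high fat over 8 or 16 weeks. Cells were labelled with hashtag antibodies, which mark the cells of one source before pooling, and sequenced as 1 pool, with 1 transcriptome and 1 hashtag library. No source used here ties a tag to a diet or to 1 mouse, so the sets are named by tag number only, no age is given, and every p-value measures the spread between tags. The mice carried no transgene or deletion named in the labels.

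Adipose macrophages clear dying adipocytes, store lipid and remodel matrix, and they multiply and are joined by blood monocytes as fat tissue expands. Resident cells around vessels are known for Lyve1, Folr2 and Cd209 lectins, and cells recently derived from monocytes for Ccr2, Fn1 and Retnla. Lipid-associated macrophages, found around dead adipocytes, are known for Trem2, Cd9, Gpnmb and Lpl. The pan-macrophage lysosomal gene Cd68, which the selection did not use, stood between 1607 and 2002 CPM in all 6 tags.

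Macrophage reads ranged from 29270200 to 39335629 per tag in tags A0304 to A0307 and from 51644415 to 64373121 in tags A0308 to A0310. Median reads per macrophage were between 65056 and 68858 in the first set, 74469 and 74944 in tags A0308 and A0309, and 99504 in tag A0310. With each cell thinned to 10000 reads, the median number of detected genes was 2203, 2243 and 2206 against 2411, 2356.5 and 2487.5, so the sets differed in detected genes at equal depth too. Tag A0310 stood apart from A0308 and A0309 in many genes, and results that rest on it are given with and without it. Of 10 fibroblast genes, 1 was called, Gsn, a gene that macrophages express too, at 373 to 393 CPM in tags A0304 to A0307 and 513 to 545 in A0308 to A0310. Of all genes, 0.533% were called higher. The summed CPM of the fibroblast list was 621 to 639 and 760 to 865. Of 9 T and NK genes, Cd2 was called, in the lower direction, beside 0.725% of all genes. The summed CPM was 491 to 545 and 177 to 344, most of it Il7r. Of the 9, however, 7 had a positive change, beside 50.4% of all genes, and the list median was 1.14. No gene was called among 10 endothelial, 6 B cell, 6 dendritic, 5 neutrophil and mast, 8 mural, 8 mesothelial and epithelial and 8 adipocyte genes. Their summed CPM ran in the 2 sets from 39.2 to 48.7 and 43.9 to 69.0 (endothelial), 52.6 to 66.9 and 44.9 to 136 (B cell), and 7.89 to 9.76 and 7.39 to 20.9 (dendritic). It stayed at or under 68.5 for the other 4 lists. The part of these lists in the results below was not tested.

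The share of macrophages among cells was higher in each tag of A0308 to A0310 than in any of A0304 to A0307, in a design that cannot reach a p of 0.05. The share was 30.5% in tag A0304, 33.9% in A0305 and 37.6% in A0307, against 39.2% in A0308, 46.7% in A0309 and 44.2% in A0310. Tags A0307 and A0308 were close. The means were 34.0% ± 3.56 and 43.4% ± 3.86 (SD, n = 3 tags each), a difference of 9.37 percentage points (two-sided exact permutation test, p = 0.1, the smallest that 3 against 3 can give). The genes that define the selection also differed in level. In the macrophages the 10 selection genes summed to 5152 to 5270 CPM in tags A0304 to A0307. They summed to 8166, 7984 and 4335 CPM in A0308, A0309 and A0310. None was called, but without A0310 Adgre1, C1qa, C1qb and C1qc were called higher, beside 2.6% of all genes. The part of marker level and read depth in the share was not tested. For comparison, tags A0301 to A0303 held between 5.39% and 6.33% macrophages, 51 to 67 cells a tag.

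**Figure D1:**
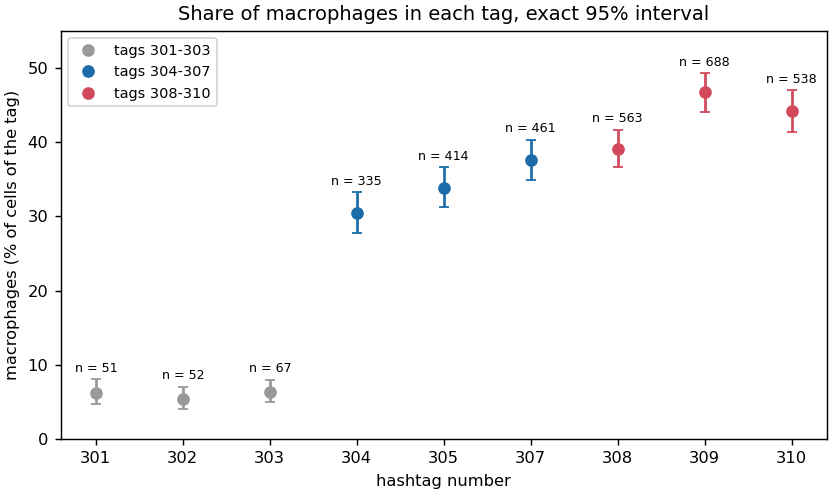
Share of macrophages (y axis, % of cells with at most 25% mt- reads) in each of 9 tags (x axis), with exact 95% binomial intervals that cover counting error only and the number of macrophages above each point. Tags A0308 to A0310 sit between 39.2% and 46.7%, above A0304 to A0307 at 30.5% to 37.6%.

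Eosinophil-associated ribonucleases and the lectin Mgl2 were far lower in tags A0308 to A0310. Ear2, an eosinophil-associated ribonuclease (chromosome 14, 44102654 to 44103534, plus strand, GRCm38), had 571, 816 and 553 CPM in tags A0304, A0305 and A0307 and 68.3, 50.7 and 83.7 CPM in tags A0308, A0309 and A0310. Its paralog Rnase2a had 45.8, 52.4 and 55.3 CPM against 0.155, 0 and 0. Ear10 had 9.43, 13.9 and 10.7 CPM against 1.24, 1.20 and 1.17, and Ear1 had 7.21, 11.1 and 7.83 CPM against 1.51, 0.976 and 2.13. In each gene every tag of A0308 to A0310 was well below the lowest tag of A0304 to A0307.

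These ribonucleases are paralogs on one chromosome, and the bases before their starts are shown because 4 members were lower together. RefSeq (GRCm38.p6) holds the 250 bases before the start of Ear2 (chr14:44102404-44102653, plus strand), Ear10 (chr14:43923597-43923846, minus strand) and Rnase2a (chr14:51256113-51256362, minus strand). Capitals mark the longest stretch, of 22 bases, that is identical in these and in Ear1.
Ear2: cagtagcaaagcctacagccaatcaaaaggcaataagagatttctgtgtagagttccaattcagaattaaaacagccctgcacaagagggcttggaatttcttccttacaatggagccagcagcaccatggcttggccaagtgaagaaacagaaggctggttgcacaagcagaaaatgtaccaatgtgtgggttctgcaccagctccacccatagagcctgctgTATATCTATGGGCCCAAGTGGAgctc
Ear10: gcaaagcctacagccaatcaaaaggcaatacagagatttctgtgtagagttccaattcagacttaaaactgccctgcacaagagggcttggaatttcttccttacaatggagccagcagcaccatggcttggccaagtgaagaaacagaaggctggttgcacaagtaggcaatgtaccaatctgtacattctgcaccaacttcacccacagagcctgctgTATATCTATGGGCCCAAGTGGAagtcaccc
Rnase2a: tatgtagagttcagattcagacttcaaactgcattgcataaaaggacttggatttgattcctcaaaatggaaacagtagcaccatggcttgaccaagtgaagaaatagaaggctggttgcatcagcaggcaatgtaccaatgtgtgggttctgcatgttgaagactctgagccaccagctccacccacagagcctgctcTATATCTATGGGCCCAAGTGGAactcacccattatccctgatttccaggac

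Aligned to Ear2, the bases before Ear1 were 99.2% identical, those before Ear10 94.3% and those before Rnase2a 86.4% over 206 aligned positions. The 22-base stretch occurred, on either strand, in the 250 bases before 4 of 32851 starts in the table, those of Ear1, Ear2, Ear10 and Rnase2a. Such close relatives can share reads, so the split between Ear1, Ear2 and Ear10 is uncertain, while Rnase2a is more distant. Not all of the ribonuclease A family was lower: Rnase4 had 66.0, 58.2 and 91.5 CPM against 98.7, 160 and 68.2 (edgeR adjusted p = 0.43).

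In edgeR's quasi-likelihood test with Benjamini-Hochberg adjustment over 18211 genes, 229 genes passed 0.05, or 1.26% of those tested. Of these, 97 (0.533%) were higher and 132 (0.725%) lower in tags A0308 to A0310. All 229 had non-overlapping tags, as did 21.7% of all genes tested. The log2 change was -3.29 ± 0.24 for Ear2 (SE; adjusted p = 0.0033), -3.27 ± 0.21 for Ear10 (adjusted p = 0.0015) and -2.52 ± 0.35 for Ear1 (adjusted p = 0.025). With gaps at low values filled, that is with every cell at 0 set just below the lowest value listed for that gene, the change of Ear2 was -2.53. Rnase2a had an adjusted p of 0.0015 and is given no fold from this fit, since 2 tags were at 0. With gaps filled its change was only -1.12 (adjusted p = 0.0065). Ear1, Ear10 and Rnase4 were chosen after their values were seen. DESeq2 on the same sums called 709 higher and 529 lower, so 57.3% of its calls were higher, against 42.4% with edgeR. Leaving out any 1 tag of A0304 to A0307 left 15 to 23 calls, without A0308 it was 103, without A0309 37 and without A0310 919.

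Few cells carried the Rnase2a reads, and in such sums fewer cells of a kind and less RNA per cell cannot be told apart. They came from 21 of 335, 33 of 414 and 34 of 461 macrophages in tags A0304, A0305 and A0307, and from 1 of 563 in tag A0308. Tags A0309 and A0310 had 0 of 688 and 0 of 538 cells, which allows shares of up to 0.436% and 0.558%. The lowest value of Rnase2a in any cell of the table is 6, so lower values may have been removed before deposit. Ear2 was spread more widely: with cells thinned to 10000 reads, 50.5%, 64.3% and 46.3% of macrophages had a read in tags A0304, A0305 and A0307 and 8.7%, 8.0% and 17.3% in A0308, A0309 and A0310. Between 6 and 24 cells a tag were too shallow to thin. Before thinning, 178 of 335 cells of tag A0304 and 109 of 538 of tag A0310 had one. In 1675 thinned cells of the same 6 tags with none of the 6 markers and 300 CPM or more of the other-lineage genes, 1.13% had an Ear2 read, at a median of 41820 reads per cell before thinning against 74761 in macrophages.

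Mgl2 (chromosome 11, 70130329 to 70137550), a galactose-type lectin known from alternatively activated macrophages and type 2 dendritic cells, had 158, 140 and 140 CPM in tags A0304, A0305 and A0307 and 22.0, 12.7 and 12.2 CPM in A0308, A0309 and A0310. The log2 change was -3.28 ± 0.22 (adjusted p = 0.0017). No value of Mgl2 is under 7 in the table, and with gaps filled its change was -1.49 (adjusted p = 0.0019). After thinning, 24.8% to 28.9% of macrophages had a read in the first set and 3.3% to 7.8% in the second, against 0.418% of the other-lineage cells. Within the type 2 activation list of 15 tested genes, Mgl2, Cd209a and Ear2 were lower and none was higher (background 0.725% and 0.533%; with gaps filled Cd209a had an adjusted p of 0.11), with a list median of -0.07 beside 0.00 over all genes. The nearby paralog Clec10a, another galactose-type lectin, had 95.3, 183 and 121 CPM against 185, 110 and 113 and overlapped between the sets. Arg1, arginase 1, overlapped too, at 13.7 to 23.6 against 18.1 to 23.1 CPM.

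A group of enzymes and receptors was lower along with them, as the plot of the 15 lower genes shows. Aldh1a2, the enzyme that makes retinoic acid from retinaldehyde, had 60.9, 50.1 and 41.6 CPM against 7.55, 7.68 and 5.51 (log2 change -2.92 ± 0.18, adjusted p = 0.0015). Fcrls, an Fc receptor-like scavenger receptor, had 195, 188 and 156 CPM against 42.4, 43.2 and 31.8, a log2 change of -2.24 ± 0.13. Tags within each set lay close together for both genes. Napsa, the aspartic protease napsin A, had 39.3, 45.3 and 40.7 CPM against 12.2, 10.1 and 9.88. Cyp4f18, a cytochrome P450 that inactivates leukotriene B4, had 91.0, 97.0 and 97.2 CPM against 31.6, 25.5 and 23.3. With Rnase2a, Ear2 and Mgl2, these 4 genes kept an adjusted p below 0.05 under each of 12 other settings and with each of the 6 tags left out in turn.

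**Figure D2:**
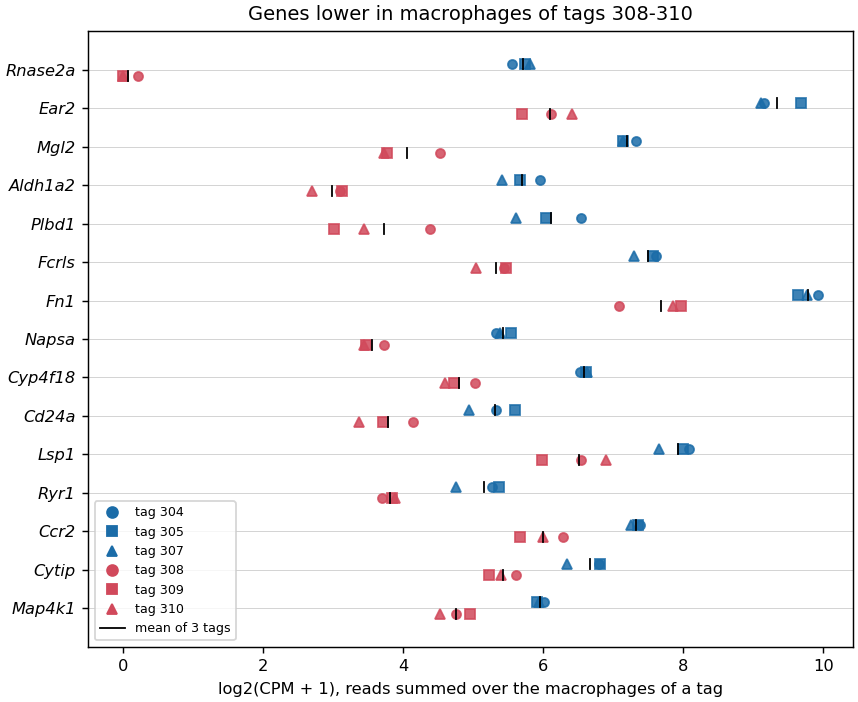
Level of the 15 named lower genes (x axis, log2 of CPM + 1 of reads summed per tag) with 1 point per tag and a bar at the mean of 3 tags. For each gene the 3 tags of A0308 to A0310 lie below the 3 tags of A0304 to A0307, with the widest gap for Rnase2a.

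Several of these genes, such as Mgl2, Cd209a, Cd24a and Napsa, are also known from dendritic cells. The dendritic markers Flt3 and Zbtb46 stood at 0.171 to 1.12 and 0.649 to 2.44 CPM in tags A0304 to A0307, and at 0.249 to 1.09 and 0.777 to 2.38 CPM in A0308 to A0310. These were the 2 of 6 tested dendritic list genes with a negative change, -0.21 and -0.27. The other 4 had a positive one, and the list median was 0.26. Batf3, a transcription factor of one dendritic lineage that is chosen here after its values were seen, had 62.4, 56.2 and 51.4 CPM against 37.1, 28.8 and 25.1, a log2 change of -0.95 ± 0.14 (adjusted p = 0.030). The part of dendritic cells in these results was not tested. Among cells with at least 5 of the 6 macrophage markers, where 0.324% of genes were called higher and 0.387% lower, Ear2, Mgl2, Aldh1a2, Fcrls, Napsa and Cyp4f18 were again lower, while Cd24a, Cd209a and Plbd1 were among those that no longer passed.

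Several genes of recently recruited macrophages were lower as well. Ccr2, the receptor that draws monocytes into tissue, had 166, 162 and 151 CPM in tags A0304, A0305 and A0307 and 76.6, 50.0 and 62.8 CPM in A0308, A0309 and A0310 (log2 change -1.38 ± 0.14, adjusted p = 0.013). Fn1, fibronectin, had 968, 793 and 869 CPM against 135, 249 and 230 (log2 change -2.13 ± 0.25, adjusted p = 0.018). For both the sets did not overlap. After thinning, 45.9% to 53.2% and 15.8% to 25.4% of macrophages had an Fn1 read, against 70.2% of other-lineage cells, and the part of those cells' RNA in the result was not tested. Of 15 genes of the monocyte and recruited list, 5 were lower (Ccr2, Fn1, Plbd1, Thbs1 and Cd226) and none higher, with a list median of -0.79, beside 0.725% and 0.533% of all genes. Of the 15, 8 had a negative and 7 a positive change. Without tag A0310, 7 were called lower (2.36% of all genes), without A0308 6 (0.41%), and without A0309 only Ccr2. Both Ccr2 and Fn1 lost their calls without A0304, without A0305 and without A0307. With at least 5 of 6 markers, only Ccr2 and Fn1 of this list were called (0.387% of all genes lower) and the median was -0.39. Thbs1 also missed the threshold with gaps filled (adjusted p = 0.078). Plbd1, a phospholipase B-like protein of myeloid granules, had 92.1, 64.7 and 48.0 CPM against 19.9, 7.04 and 9.88. Cd226, an adhesion receptor, had 32.1, 26.7 and 20.1 CPM against 7.28, 2.98 and 2.67. Ly6c2, Plac8, Hp and Vcan, genes of blood monocytes themselves, did not pass the test: Plac8 had 0.82, 2.75 and 2.19 CPM against 14.5, 6.05 and 4.64, and Ly6c2 was high in tag A0308 alone, at 29.5 CPM against 2.94 or less in the other 5 tags.

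Retnla, a secreted protein induced by type 2 cytokines, stood at 5205, 5298 and 5105 CPM in tags A0304, A0305 and A0307 and at 789, 666 and 63.8 CPM in tags A0308, A0309 and A0310. The first set was nearly level, while tag A0310 lay far below A0308 and A0309. The log2 change of -3.44 ± 0.76 missed the threshold (adjusted p = 0.093), and without tag A0310 it was -2.92 (adjusted p = 2.4e-05). Without A0308 and without A0309 the change was -3.88 and -3.70, neither called. Reads came from 163 of 335, 197 of 414 and 194 of 461 cells in the first set and from 57 of 563, 42 of 688 and 13 of 538 in the second. No cell of the table has a Retnla value under 57, so cells with fewer reads may be counted as 0.

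Genes of resident macrophages around vessels did not move as a block. Stab1, the scavenger receptor stabilin-1, had 76.2, 85.3 and 89.6 CPM in tags A0304, A0305 and A0307 and 251, 293 and 183 CPM in A0308, A0309 and A0310 (log2 change 1.49 ± 0.15, adjusted p = 0.013). Gas6, a ligand of the TAM receptors that take up dying cells, had 30.7, 26.8 and 41.4 CPM against 86.8, 100 and 62.4 (log2 change 1.29 ± 0.21, adjusted p = 0.039). Gas6 lost its call in 5 of 12 other settings, with a change of 0.46 (adjusted p = 0.16) with gaps filled and 0.37 (adjusted p = 0.52) by mean CPM per cell. In both, tag A0310 was the lowest of its set but above all of A0304 to A0307. Cd209d, a C-type lectin, went the other way, with 24.3, 13.7 and 22.5 CPM against 1.99, 0.441 and 0.264 (adjusted p = 0.033). Of 18 genes, 2 were higher and 1 lower, beside 0.533% and 0.725% of all genes, and 15 did not pass the test.

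Members that missed the threshold also lay on both sides. Lyve1, a hyaluronan receptor, had 43.5, 28.0 and 77.9 CPM against 7.26, 11.95 and 1.63, and Cd209f had 33.7, 17.4 and 27.3 CPM against 4.38, 2.94 and 0.326. Cbr2, a carbonyl reductase, had 53.5, 61.9 and 78.7 CPM against 29.1, 26.6 and 10.95. Folr2, a folate receptor, had 208, 238 and 267 CPM against 727, 819 and 310.4. Without tag A0310, 4 of the 18 were called higher (Folr2, Gas6, Stab1 and Pf4) and 6 lower (Lyve1, Cbr2, F13a1, Cd209f, Cd209d and Cd209b), in a fit that called 2.6% of all genes higher and 2.36% lower. Without A0308 the calls were Stab1 higher and Cd209d lower, and without A0309 Stab1 higher and Cd209b lower.

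**Figure D3:**
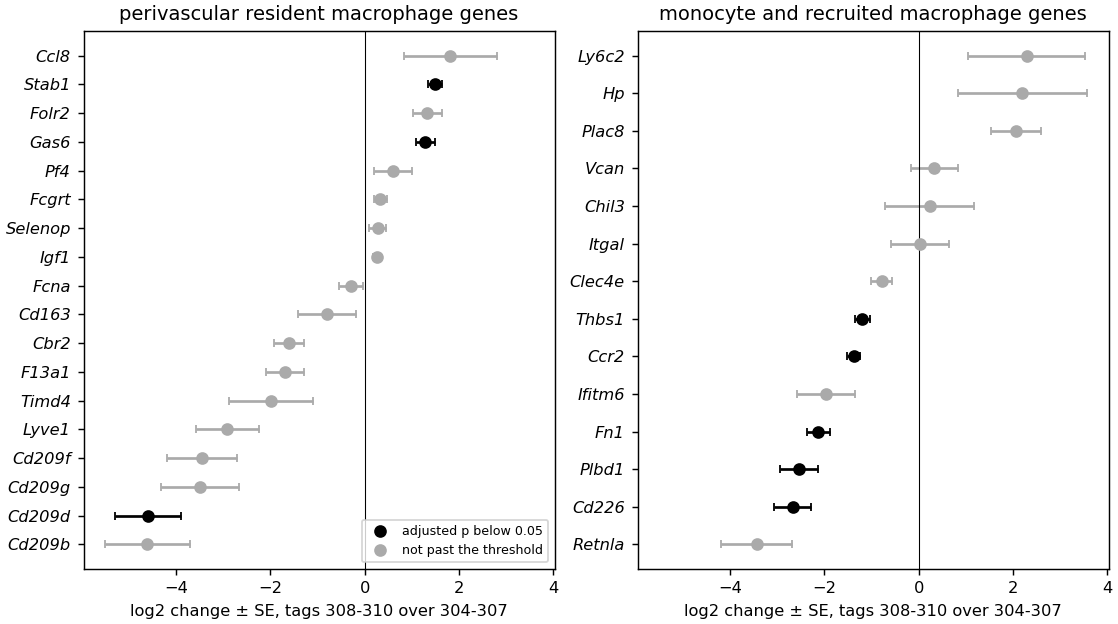
Log2 change ± SE (x axis, tags A0308 to A0310 over A0304 to A0307, 3 tags a side) for 18 resident and 14 of 15 recruited macrophage genes, black where the edgeR adjusted p is below 0.05. Resident genes run from Cd209b at -4.60 to Ccl8 at 1.82, and all 5 black recruited genes lie below 0.

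Cpe is carboxypeptidase E, a processing enzyme of secreted peptides. It had 23.7, 25.6 and 36.4 CPM in tags A0304, A0305 and A0307 and 321, 401 and 133 CPM in A0308, A0309 and A0310 (log2 change 3.26 ± 0.39, adjusted p = 0.019). With gaps filled the change was 1.88. After thinning, 6.4% to 6.7% of macrophages had a Cpe read in the first set, below the 7.82% of other-lineage cells, and 24.1% to 45.6% in the second. Tag A0310 was again the closest to the first set. Serpinb6b, a serine protease inhibitor, had 26.1, 19.1 and 28.6 CPM against 124, 139 and 189 (log2 change 2.58 ± 0.24, adjusted p = 0.0092), here with tag A0310 highest. With gaps filled it was 1.20.

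Surface and signalling genes made up much of the rest. Cd72, an inhibitory C-type lectin, had 59.9, 44.6 and 59.7 CPM against 203, 164 and 124 (log2 change 1.53 ± 0.18). Cadm1, a cell adhesion molecule, had 52.5, 47.8 and 67.2 CPM against 258, 269 and 122, and Rasgrp3, an activator of Ras, had 9.22, 9.93 and 14.8 CPM against 73.3, 77.0 and 27.3. For each the groups did not overlap, and A0310 stood lowest among A0308 to A0310. Ccnd1, cyclin D1 of the G1 phase, had 79.3, 66.5 and 85.5 CPM against 292, 205 and 185. Maf, a transcription factor of mature macrophages, had 54.0, 52.6 and 59.2 CPM against 159, 163 and 93.5. Maoa, monoamine oxidase A, had 10.8, 14.8 and 10.8 CPM against 31.3, 32.2 and 37.5, and was level across tags A0308 to A0310. Other named genes were Pcp4l1, Smagp, Npl and Nes, at log2 changes of 1.27 to 2.65. Each of the 15 lost its call without tag A0304, without A0305 and without A0307, with adjusted p of up to 0.213, and all kept it without tag A0310.

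**Figure D4:**
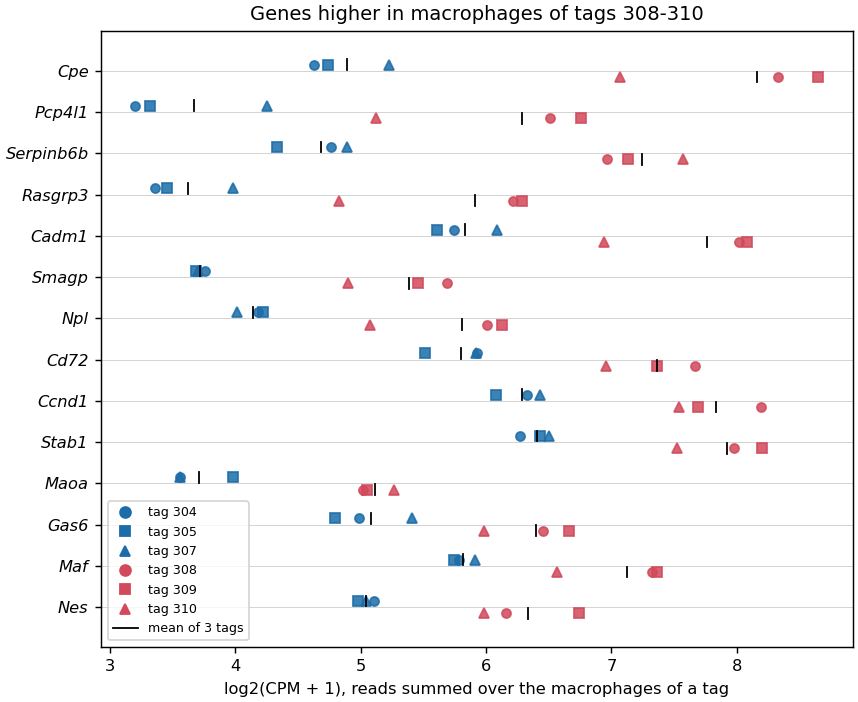
Level of 14 of the 15 named higher genes (x axis, log2 of CPM + 1 of reads summed per tag) with 1 point per tag and a bar at the mean of 3 tags. Tag A0310 is the lowest of its set for 12 genes and the highest for Serpinb6b and Maoa.

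Proliferation genes lay on the high side in tags A0308 to A0310, and 2 of 22 passed the test, beside 0.533% of all genes. All 22 had a positive change, beside 50.4% of all genes, with a list median of 0.81. Mki67, the proliferation marker, had 42.3, 74.2 and 49.6 CPM in tags A0304, A0305 and A0307 and 133, 138 and 116 CPM in A0308, A0309 and A0310 (log2 change 1.18 ± 0.19, adjusted p = 0.039). Mcm6, a subunit of the replicative helicase, had 29.7, 41.2 and 42.9 CPM against 79.0, 75.9 and 64.9 (log2 change 0.91 ± 0.14, adjusted p = 0.038). These 2 were the members called, and 20 of the 22 had an unadjusted p below 0.05, beside 8.83% of all genes in that direction. Mki67 missed the threshold with gaps filled (adjusted p = 0.051). Without tag A0310, 12 of 22 were called, beside 2.6% of all genes. Without A0308 and without A0309 none of them was. Cells with 20 CPM or more of Mki67 and Top2a together were also left out: 59 genes (0.345%) were then called higher and 80 (0.468%) lower, Mcm6 among the higher.

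Lipid-associated macrophage genes were present at high levels in both sets, and none of 18 passed the test (list median -0.01). Trem2, a lipid receptor, had 1173, 1147 and 1283 CPM against 1376, 1673 and 1384, and Lpl, lipoprotein lipase, had 6135, 5617 and 5427 CPM against 7846, 8326 and 6540. Both were above the first set in every tag of the second, by a log2 change of 0.26 ± 0.10 and 0.36 ± 0.09. Of the 18, 3 did not overlap in the higher and 4 in the lower direction, beside 21.7% of all genes in either direction. Gpnmb, a glycoprotein of lysosomes, had 3690, 2937 and 3644 CPM against 1348, 2309 and 3800 and overlapped. Without tag A0310, when 2.6% of all genes were called higher and 2.36% lower, Lpl was higher and Fabp5, Lgals3, Plin2 and Ctsl lower. Without A0308 only Spp1 was called, in the higher direction, and without A0309 none was. In the wider lipid lists, Hilpda, an inhibitor of lipolysis on lipid droplets, was lower, at 220, 234 and 200 CPM against 141, 114 and 148 (adjusted p = 0.047). It was the 1 call among 25 genes of fatty acid storage and oxidation, beside 0.725% of all genes called lower. None of 12 cholesterol efflux and none of 20 sterol synthesis genes passed. Of 28 lysosome genes, Acp5, tartrate-resistant acid phosphatase, was lower, at 243, 262 and 271 CPM against 85.9, 130 and 135 (adjusted p = 0.040). Acp5 was the 1 call of that list, beside the same 0.725%.

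Genes of energy metabolism gave 1 call, beside 0.725% of all genes called lower. None of 20 oxidative phosphorylation genes passed, none had an unadjusted p below 0.05 and the list median was 0.01. Of 23 glycolysis and hypoxia genes, Hif1a, the oxygen-regulated transcription factor, was lower, at 69.8, 71.2 and 62.1 CPM against 50.4, 43.0 and 41.7 (log2 change -0.63 ± 0.09, adjusted p = 0.031). Without tag A0310, 6 were called lower (2.36% of all genes), Pfkp, Pgam1, Eno1 and Ldha of glycolysis, the lactate exporter Slc16a3 and Hif1a. Without A0308 and without A0309 none was called, with list medians of 0.05 and -0.12.

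Genes through which macrophages act on fibroblasts and matrix gave 3 calls, beside 0.533% of all genes called higher and 0.725% lower. Pdgfc, a growth factor for mesenchymal cells, had 3.25, 5.80 and 5.57 CPM against 16.5, 15.8 and 13.8 (log2 change 1.61 ± 0.23, adjusted p = 0.028) and was the 1 call among 21 ligand genes. Mmp9, a gelatinase, had 4.00, 6.00 and 8.06 CPM against 0.755, 0.157 and 0.482 (adjusted p = 0.030). Timp1, an inhibitor of metalloproteases, had 4.61, 3.93 and 5.47 CPM against 10.6, 10.3 and 10.7 (adjusted p = 0.040), but has no value under 6 in the table, and with such gaps filled its change was -0.14. Mmp12, the macrophage elastase, had 2874, 2151 and 2994 CPM against 685, 1288 and 6285. The second set thus lay on both sides of the first, and without tag A0310 Mmp12 was lower by a log2 change of -1.51 (adjusted p = 0.035). Without A0308 and without A0309 its change was 0.52 and 0.41, neither called.

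Scavenger and complement genes gave 2 higher and 1 lower call among 24, beside 0.533% and 0.725% of all genes. Vsig4, a complement receptor of tissue-resident macrophages, had under 0.35 CPM in each tag of A0304 to A0307, from 6 to 7 cells a tag, and 34.9, 21.3 and 2.98 CPM in A0308, A0309 and A0310, from 41, 41 and 14 cells. Its edgeR adjusted p was 0.035, and 0.00081 without A0310 (log2 change 6.29). Vsig4 lost its call with any other tag left out, with all 9 tags in 1 fit and without proliferating cells (adjusted p = 0.058). Cfp, properdin, which stabilises the alternative complement pathway, had 347, 387 and 314.6 CPM against 245, 186 and 213 (log2 change -0.74 ± 0.11, adjusted p = 0.035).

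The 3 tags of A0308 to A0310 differed from each other far more than those of A0304 to A0307. Among 6084 genes with a mean of at least 20 CPM, the highest tag was 2 times the lowest or more in 0.411% within A0304 to A0307 and in 5.11% of the genes within A0308 to A0310. Tag A0310 was farthest from the middle value in 238 of these genes, tag A0308 in 69 and tag A0309 in 4. Members of 3 lists are given tag by tag.

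Antioxidant genes were highest in tag A0310, with a summed 46861 CPM against 17732 to 30745 in the other 8 tags. Prdx1, a peroxiredoxin, had 7394 CPM there, 1513 and 1976 in tags A0308 and A0309 and 1602 to 2027 in A0304 to A0307. Gclm, a subunit of the enzyme that starts glutathione synthesis, had 267 CPM in A0310 and 28.2 to 47.0 in the other 5 tags, and Gsr, glutathione reductase, had 90.5 CPM against 13.6 to 19.3. Of 20 tested genes, 11 were at least 2 times higher in A0310 than in both A0308 and A0309, and none was called between the sets. Among the 6084 genes with a mean of at least 20 CPM, 53 were so by CPM + 1. Clec4d, a C-type lectin receptor, had 449 CPM there against 59.8 to 87.2 in the other 5 tags. Haemoglobin beta, Hbb-bs, had 179 CPM in tag A0310, all from 1 of 538 cells, and is listed at 0 in the other 8.

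Interferon-induced genes summed to 1328 CPM in tag A0308 and to 500 to 750 in the other 5 tags of both sets, while tags A0301 to A0303 had 1172, 1920 and 1079. Cxcl9, a chemokine for T cells, had 159 CPM in A0308, 1.28 in A0309 and 14.4 in A0310, and 1.07 to 11.3 in A0304 to A0307. Of 18 tested genes, 12 were at least 2 times higher in A0308 than in both A0309 and A0310, none was called, and the list median was 0.86. Among the 6084 genes with a mean of at least 20 CPM, 26 were so in A0308 by CPM + 1. Trac, the T cell receptor alpha constant gene, was also highest there, at 9.76 CPM against 0.483 to 0.898 in the other 5 tags. Of 9 tested T and NK genes, 7 were at least 2 times higher in A0308 than in both A0309 and A0310. The list sum, however, was 296 CPM in A0308, 344 in A0309, 177 in A0310 and 491 to 545 in A0304 to A0307. The part of T cells in the result was not tested.

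Of the MHC class II genes, which serve antigen presentation to CD4 T cells, H2-Aa and Cd74 had a graded order within the second set. H2-Aa, a class II alpha chain, had 4255, 4247 and 3727 CPM in tags A0304, A0305 and A0307 and 4824, 2551 and 1183 CPM in A0308, A0309 and A0310. For H2-Aa, tag A0308 was above the first set, and A0309 and A0310 below it. Cd74, the invariant chain, had 7546, 4634 and 2533 CPM in A0308, A0309 and A0310 against 6946 to 7947. None of 11 genes was called (list median -0.68), and without tag A0308 H2-DMa, H2-DMb2 and Ciita, the class II transactivator, were called lower, in a fit that called 0.41% of all genes lower. Without A0309 and without A0310 none was called.

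**Figure D5:**
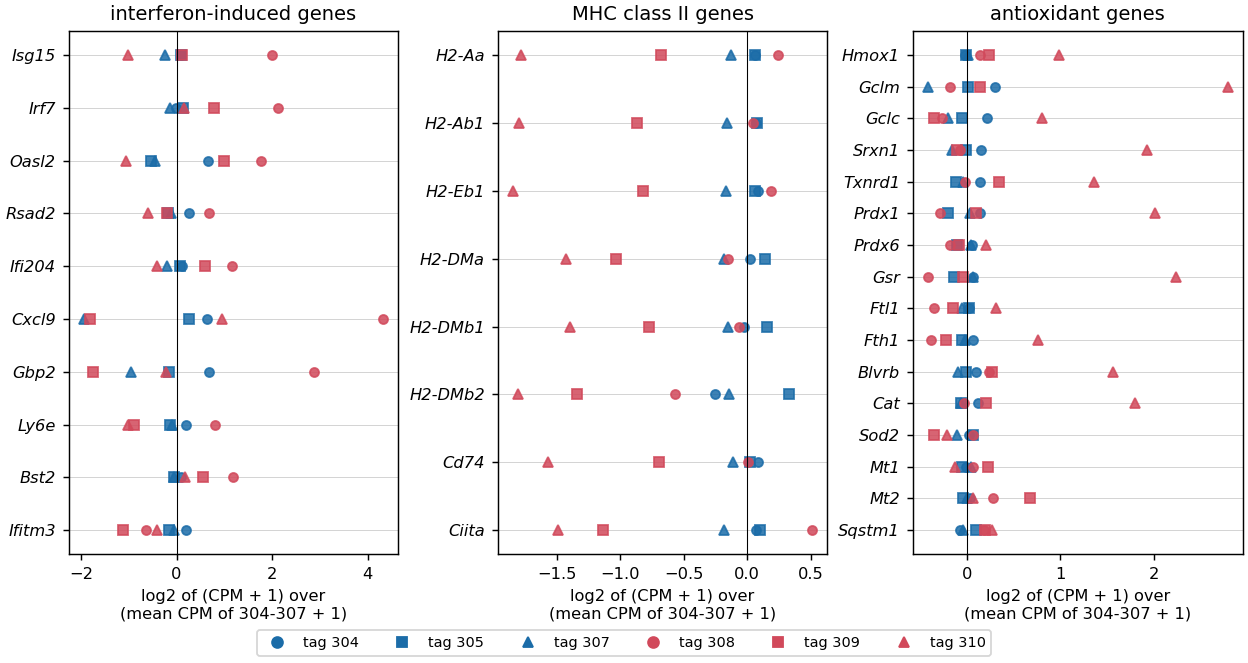
Each tag's level over the mean of tags A0304, A0305 and A0307 (x axis, log2 of CPM + 1 over that mean + 1) for genes of 3 lists with a mean of at least 10 CPM, without 1 that is not reported. Tag A0308 lies to the right in the interferon panel, tag A0310 to the right in the antioxidant panel, and in the MHC class II panel H2-Aa runs from 4824 CPM in tag A0308 to 1183 in tag A0310.

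Inflammatory cytokines and chemokines gave no call among 25 genes (list median 0.04). Tnf, a main inflammatory cytokine, had 64.2, 67.8 and 73.1 CPM against 120, 110 and 58.3, and Il1b had 40.5, 51.9 and 33.9 CPM against 52.8, 23.4 and 11.7. Both overlapped between the sets. Without tag A0310, 5 were called higher (Tnf, Ccl4, Ccl5, Cxcl16 and Il10, beside 2.6% of all genes) and 4 lower (Ccl6, Ccl7, Ccl9 and Il1rn, beside 2.36%). Without A0308 none was called, and without A0309 only Ccl3, which was higher. Of 17 genes of the response to tissue dissociation, Dusp1, a MAP kinase phosphatase, was higher, at 823, 765 and 754 CPM against 1181, 1090 and 1000 (log2 change 0.44 ± 0.07, adjusted p = 0.041). Dusp1 was the 1 call of the list, beside 0.533% of all genes called higher. Without tag A0310, Fos, Fosb, Egr1, Hspa1a and Zfp36 were called higher too, beside 2.6% of all genes. No gene of this list was called without A0308 or without A0309.

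Genes of cytosolic ribosomal proteins, the building blocks of the ribosome, lay slightly on the low side in tags A0308 to A0310. Of 83 tested, none passed the adjusted threshold in edgeR's test, 79 had a negative change, 45 had an unadjusted p below 0.05 in that direction, beside 7.06% of all genes, and the median log2 change was -0.16.

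Tags A0301 to A0303, with 170 macrophages in all, were set beside both sets without a test, since such comparisons would share tags. For the 15 lower genes, all 3 of these tags lay above all of A0308 to A0310 in 14, and their mean was above that of A0304 to A0307 in 13. Fn1 had 2277, 2432 and 2089 CPM there, Ccr2 472, 463 and 606, and Retnla 11587, 19860 and 20285, each above both other sets. Of their macrophages, 76.5%, 82.7% and 73.1% had at least 10 hashtag counts with 2/3 or more from their own tag. In the other 6 tags it was 93.3% to 99.8%. Median reads were 50175, 37944.5 and 49676 per macrophage. Fibroblast genes summed to 1341, 1258 and 774 CPM and B cell genes to 48.0, 420 and 2863. The part of these differences in the levels was not tested. For the 15 higher genes the mean of A0301 to A0303 was above that of A0304 to A0307 in all 15 and below that of A0308 to A0310 in 13. Stab1, for one, had 111, 224 and 352 CPM. By these means A0304 to A0307 stood lowest in the higher genes and A0308 to A0310 lowest in the lower genes. These genes were chosen for a large, non-overlapping change between A0304 to A0307 and A0308 to A0310. Another set therefore tends to lie above the lower set and below the higher set. No share over all tested genes was set beside these counts, so an order beyond that choice was not tested.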

How the data were processed

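Single-cell reads of 1 pool of 9 tags were analysed from the authors' deposited table of counts per gene and cell, with the deposited hashtag counts used to check tags. Cutadapt 2.10, Bowtie2 2.4.2, R 3.6.3 and GRCm38 are named in the submitters' processing notes. No molecular identifiers are recorded, so the counts were treated as reads, and intervals cover counting error only. In 389 of 18168 genes found in over 100 cells no value is under 5, so low values may be missing. The 278 cells the authors' names call doublets and 12 columns not detected as any tag were left out, and no further doublet caller was run.

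Reads of the selected macrophages were summed per tag (29270200 to 64373121 in the 6 tags) and tested with edgeR 4.0.16 (quasi-likelihood, TMM, filterByExpr, Benjamini-Hochberg over all genes, adjusted p below 0.05). Log2 changes are tags A0308 to A0310 over A0304 to A0307. In simulated data 91% of genes changed by a log2 of 2 and 13% of those changed by a log2 of 1 were recovered among 18211 genes run. The simulation gave every gene and both sets the same spread between tags. In the data the spread differed between the sets, so these rates may not hold here. Named genes are the 15 with the largest change in each direction among those called, with a mean of at least 20 CPM and non-overlapping tags, leaving out the selection genes, mt- genes and predicted genes, plus called members of the gene lists. Lists are described by counts and medians. Selection, members and lists were chosen with earlier results of these data known. Shares were compared by an exact permutation test. DESeq2 1.42.0, limma 3.58.1 and other filters were tried as alternatives, with a pseudocount of 1 for mean CPM. Python 3.11.15 and R 4.3.3 were used. Symbols were matched to GENCODE M21 for 28350 of 29417 genes. A few genes that entered these fits and counts are not reported here.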

Additional observations from a re-analysis of the deposited data

Results flagged for a closer look

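The hashtag table holds counts, in the barcodes of these macrophages, for tags that name none of the cells, above the 3 counts used as a floor. Hashtag A0306 had 7558 counts, or 0.0657% of 11503818 tag counts. Hashtag A0312 had 979 counts, hashtag A0311 had 219, hashtag A0313 had 39 and hashtag A0315 had 21.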

How the results depend on the processing

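No paired analysis was possible because the tag numbers do not pair tags across the sets. The macrophage share differed by 12.1 percentage points with at least 5 markers, by 8.99 with at most 10% mt- reads, and by 7.61 to 11.5 with each tag left out. The counts of genes called higher, lower and in either direction (main 97, 132 and 229) were 709, 529 and 1238 with DESeq2, 9, 44 and 53 with all 9 tags in 1 fit, 57, 68 and 125 with at least 5 markers, and 59, 80 and 139 without proliferating cells. Mean CPM per cell with limma called 149 higher. With each tag left out they ranged from 1 to 482 higher, 13 to 437 lower and 15 to 919 in all. The cause was not tested. DESeq2 called 224 of the 229, and the fit without tag A0310 called 228 of them. Timp1 changed sign, to -0.14, when gaps at low values were filled, and with it Gas6, Thbs1, Mki67, Cd209a and Gsn lost their calls. The fold of 7 named genes, Rnase2a, Ear2, Mgl2, Cpe, Serpinb6b, Plbd1 (log2 change -0.98) and Gas6, then shrank by over 1.5 times. Of 30 named genes, 7 kept their call with each tag left out, and 17 under each of 12 other settings, of which cells thinned to 10000 reads was chosen after seeing the data. Of 28 list medians, 21 changed sign under at least 1 setting. Few cells carried the reads of Rnase2a and Vsig4, which limits the precision of both.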

Other observations

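Members of the Ms4a family of membrane proteins, chosen after their values were seen, did not move alike. Ms4a7 had 119, 160 and 162 CPM in tags A0304, A0305 and A0307 and 382, 343 and 230 CPM in A0308, A0309 and A0310 (log2 change 1.06 ± 0.18, edgeR adjusted p = 0.043). Ms4a14 had 11.3, 15.5 and 10.3 CPM against 35.7, 33.4 and 22.6 (adjusted p = 0.039). Ms4a8a lay on the other side, at 20.6, 25.9 and 17.4 CPM against 8.54, 2.06 and 7.43, and missed the threshold (adjusted p = 0.12). F7, coagulation factor VII, had 386, 352 and 382 CPM against 65.3, 107 and 185, which also missed it (adjusted p = 0.089). Without tag A0310 the log2 change of F7 was -2.18 (adjusted p = 0.0046), and with gaps filled -1.35 (adjusted p = 0.039). Without A0308 and without A0309 it was -1.35 and -1.57, neither called.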
